A study of Rattus norvegicus with 8 samples.

Results

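The imprinted Dlk1-Dio3 locus carries one of the largest groups of miRNA genes in mammals. Its miRNAs were chosen here by position, as every rat miRNA on the array that lies on the chromosome of miR-127-3p and miR-410-3p, between them or within 300 kb of them. This gave 100 of the 719 rat miRNAs measured, all on chromosome 6 at chr6:134141380-134429970 of the rat build rn4, where a position is that of the probes' match. The nearest other miRNA of the array on that chromosome was miR-345-3p, 1005 kb before the interval, so the choice did not turn on the exact flank. Another 9 rat miRNAs had no position and could not be placed.

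The measurements are of small RNA from serum exosomes, the vesicles that cells release into blood, of male specific pathogen-free Wistar rats. The 4 control samples (replicates 1 to 4) were from sham-operated rats. The 4 samples of reflux esophagitis (replicates 5, 8, 9 and 10) were taken on day 21 after acid reflux was induced, which the study's methods describe as a ligature at the boundary of forestomach and glandular stomach with a cuff around the duodenum near the pylorus. The controls' labels give no day. The exosome fraction was a precipitate of whole serum, and whether each sample came from its own rat is not in the labels, so a p-value here speaks of these samples and not of a spread between rats. Each sample was hybridised to 1 single-colour array, and all arrays lay on 1 slide.

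At this locus the paternal and maternal chromosomes are used differently. The paternal one expresses protein-coding genes such as Dlk1, an inhibitor of cell differentiation, and Rtl1, a gene derived from a retrotransposon, whereas the maternal one expresses long non-coding transcripts such as Meg3, and the miRNAs and many small nucleolar RNAs are cut from transcripts of that chromosome. In mouse and rat these miRNAs are known best from the embryo, the placenta and the brain. A miRNA precursor is a hairpin whose arms, 5p and 3p, can each give a mature miRNA, and bases 2 to 8 of the mature miRNA, the seed, lead its pairing with target mRNAs.

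Of the 100 miRNAs, 8 were detected on all 8 arrays, 7 on some and 85 on none. Detection is the scanner software's own mark, set per miRNA and array. The share detected on at least 1 array was 15% here, against 42.6% of the other 619 rat miRNAs, and the share detected on all arrays was 8% against 22%. These shares describe what the arrays registered, and an undetected miRNA is not thereby absent. The mature sequences of the 8 miRNAs on which the values below rest are shown in order of position, with the seed in capitals, as RefSeq annotates them on the build GRCr8:
miR-770-3p: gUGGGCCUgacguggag
miR-3544: aACUCCUGcaugacgccguuccc
miR-341: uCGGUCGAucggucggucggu
miR-370-3p: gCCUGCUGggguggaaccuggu
miR-494-3p: uGAAACAUacacgggaaaccucu
miR-539-5p: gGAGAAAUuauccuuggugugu
miR-134-5p: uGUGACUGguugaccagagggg
miR-409a-3p: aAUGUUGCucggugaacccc
No seed occurred in more than one of these 8. The 3 that follow are shown because they mark the interval, or lie opposite a detected miRNA, and were detected on no array:
miR-127-3p: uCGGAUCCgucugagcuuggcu
miR-337-5p: cGGCGUCAugcaggaguugau
miR-410-3p: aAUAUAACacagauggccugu

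RefSeq held 96 of the 100 mature sequences. The largest group with one seed was GGUUGUC, in miR-494-5p, miR-496-5p and miR-410-5p, of which miR-496-5p was detected, on 1 array. The other 4 shared seeds each joined a pair, namely miR-381-3p with miR-539-3p, miR-299a-3p with miR-299b-3p, miR-299a-5p with miR-299b-5p, and miR-376b-5p with miR-376c-5p, and none of these 8 miRNAs was detected. The detected miRNAs had more G and C in their sequences than the undetected ones. The median GC content was 60.0% in the 8 detected on all arrays (range 40.9% to 70.6%), 52.4% in the 7 detected on some and 47.6% in the 81 of 85 undetected miRNAs with a sequence. Among the other rat miRNAs the same medians were 47.8%, 47.8% and 47.2%. The part of base composition in detection was not tested.

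Along the chromosome the 100 miRNAs fell into 4 groups separated by more than 10 kb. The first, miR-770 and miR-673, held 4 miRNAs over 8.47 kb, of which only miR-770-3p was detected. The second ran from miR-493 to miR-136 over 16.7 kb and held 18, of which miR-3544 and miR-493-3p were detected. It contains miR-127, which is transcribed antisense to Rtl1 and is known in mouse to cleave the Rtl1 transcript, and the 8 miRNAs that RefSeq places inside the span of Rtl1 on GRCr8 were detected on no array. The third group, miR-341, miR-1188 and miR-370, held 5 over 6.68 kb and had the most detected members for its size, 3 of 5. A gap of 178 kb, in which RefSeq annotates 84 small nucleolar RNA genes and no miRNA on GRCr8, separated it from the fourth group, miR-379 to miR-3072, with 73 miRNAs over 41.8 kb and 9 detected. In the fourth group miR-494-3p, miR-539-5p, miR-134-5p and miR-409a-3p were detected on all arrays.

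**Figure D1:**
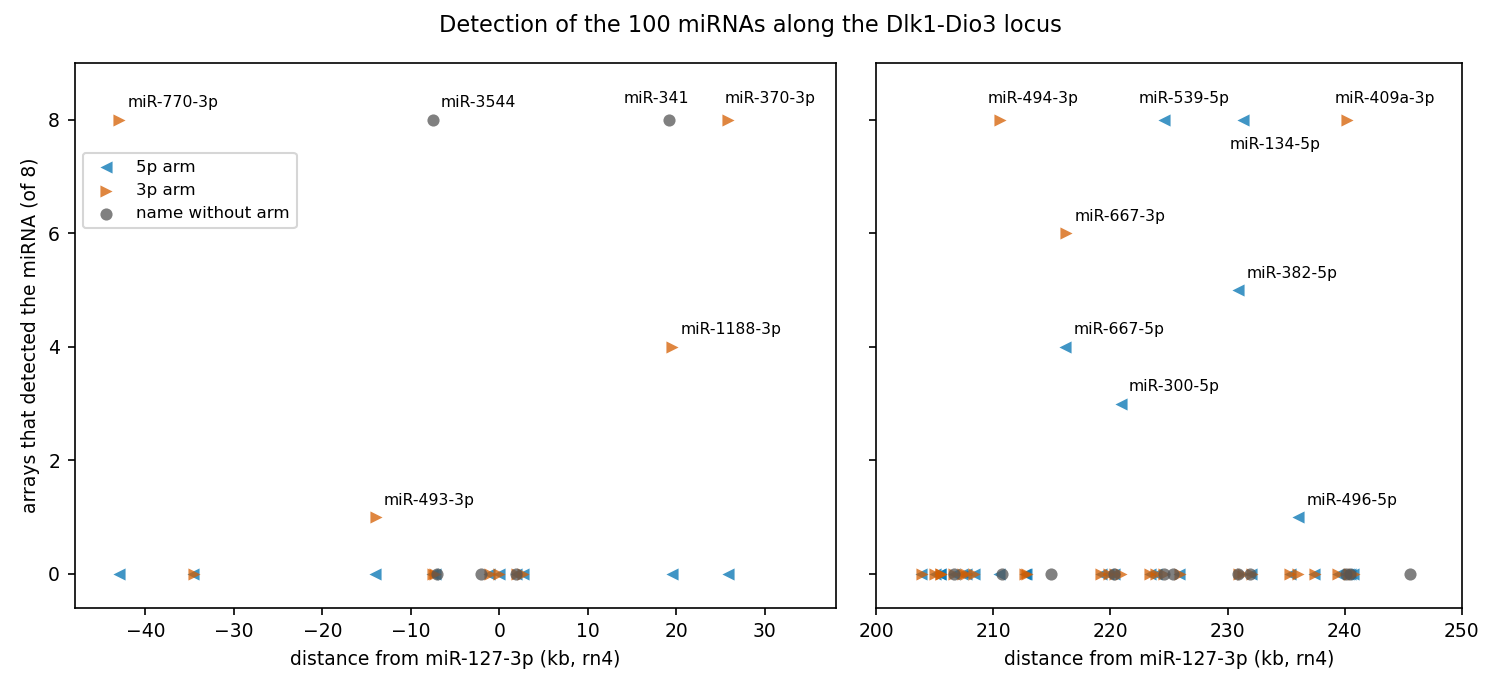
Number of arrays, of 8, on which each of the 100 miRNAs was detected (vertical axis) against the distance of its probes' match from miR-127-3p in kb on rn4 (horizontal axis, broken across the empty stretch between the panels). Each marker is 1 miRNA, left-pointing for 5p arms, right-pointing for 3p arms and round for names without an arm. The 85 markers at 0 arrays fill every group, and the 8 at the top are spread from miR-770-3p, at -42.96 kb, to miR-409a-3p, at 240 kb.

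By the span of the annotated host genes, miR-770 lay in Meg3, 32 miRNAs including miR-370 and miR-494 in the long non-coding gene LOC102555254, with 4 detected, and 41 including miR-539, miR-134 and miR-409a in the long non-coding gene LOC120103623, with 6 detected. The annotation table gives gene spans only, so exon and intron were not resolved. Strand was not compared either. These counts hold miRNAs of both strands, such as miR-299b in the first and miR-3576 and miR-409b in the second of the long non-coding genes. For miR-3544, miR-341, miR-1188 and miR-493 no host gene was annotated.

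Few arms were detected, whether alone or together with the other arm of the precursor. Of the 42 precursors with both arms on the array, 30 were detected on neither arm, 6 on the 3p arm only, 5 on the 5p arm only and 1, miR-667, on both. The remaining 16 miRNAs carry no arm in their name. By arm, 7 of 42 3p miRNAs and 6 of 42 5p miRNAs were detected on at least 1 array. With so few of either arm detected, the 1 precursor with both does not set partner arms apart from unrelated miRNAs. The same count over the other rat precursors was not made.

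By the positions of the mature sequences on GRCr8, 10 miRNAs lie on the strand opposite to that of the others. Each overlaps a miRNA of the other strand there by 17 to 22 bases. In 3 of these 10 pairs 1 partner was detected on all arrays, and in each the other partner was detected on none. miR-3544 was detected on 8 arrays and miR-337-5p, with which it shares 18 positions on GRCr8, on 0. miR-539-5p was detected on 8 arrays and miR-3576 on 0, and miR-409a-3p on 8 and miR-409b on 0. The files' rn4 positions place these 3 pairs otherwise. There the probes' match of miR-3544 (134176828-134176839) overlaps miR-337-3p (134176812-134176832) and not miR-337-5p (134176783-134176799). Those of miR-3576 and miR-409b overlap miR-539-3p and miR-409a-5p. The difference between the builds was not resolved. In the other 7 pairs neither partner was detected. Over the whole locus 85 of the 100 miRNAs were detected on no array, so an undetected partner was the usual case and does not mark these pairs.

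The undetected miRNAs are named here by group. In the first they were miR-770-5p and both arms of miR-673. In the second they were miR-493-5p, both arms of miR-337, miR-540, miR-433, miR-127, miR-434 and miR-136, and miR-665, miR-431 and miR-3543. In the third they were miR-1188-5p and miR-370-5p. In the fourth they were both arms of miR-379, miR-411, miR-299a, miR-299b, miR-380, miR-323, miR-758, miR-329, miR-666, miR-543, miR-376a, miR-376b, miR-376c, miR-381, miR-487b, miR-544, miR-485, miR-154, miR-377, miR-541, miR-412, miR-369 and miR-410. Also undetected there were miR-494-5p, miR-300-3p, miR-539-3p, miR-382-3p, miR-134-3p, miR-496-3p, miR-409a-5p, miR-3579, miR-679, miR-495, miR-3595, miR-3576, miR-6331, miR-3592, miR-668, miR-409b, miR-3578 and miR-3072. On no array did any of these 85 miRNAs have more than 1 of its 20 spots well above background.

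The number of the 100 miRNAs detected per array was 13, 12, 11 and 9 in control replicates 1 to 4 and 13, 11, 8 and 11 in reflux esophagitis replicates 5, 8, 9 and 10. The means were 11.2 ± 1.71 and 10.8 ± 2.06 (SD, n = 4 each), and the groups overlapped. With at least most spots of a miRNA well above background in place of the software's mark, the counts were 10, 8, 7 and 5 against 8, 5, 2 and 7. Reflux esophagitis replicate 9 stood apart from the other arrays in overall signal. It had 144 rat miRNAs detected against 197 to 245 on the other arrays. Detection on all arrays was also found for 144, so that list is the list of replicate 9, including the 8 of the locus. Over these 144 miRNAs the 75th percentile of the signals was 239 on replicate 9 against 442 to 1080 on the other arrays. Values are therefore given with and without replicate 9.

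The markers of other sources of serum RNA were read beside these counts. All 4 red blood cell miRNAs on the array were detected on every array, with a summed scaled signal of 23.4 to 42.9 in controls against 19.2 to 36.6 in reflux esophagitis, and the 5 leukocyte miRNAs likewise, at 5.29 to 8.49 and 5.02 to 10.05. Of the 5 platelet miRNAs 3 were detected on all arrays, with sums of 10.3 to 13.4 and 8.25 to 12.2. Of the 4 nervous system miRNAs 2 were detected, 1 of them on all arrays, with sums of 1.36 to 2.71 and 1.096 to 4.604, while miR-124-3p and miR-9a-5p, which define neurons and neural precursors, were detected on no array. Of the 3 liver miRNAs 2 were detected, 1 of them on all arrays, and miR-194-5p was detected on none. The liver sums were 0.368 to 1.13 in controls and 0.322 to 0.384 in reflux esophagitis, and these ranges overlapped. All 5 striated muscle miRNAs were detected, 1 of them on all arrays, with sums of 1.72 to 2.91 and 0.540 to 2.68. The part of these cell types in the signals of the locus was not tested, and in serum a change in the number of vesicles from a cell type cannot be told apart from a change in the miRNA within them.

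For the comparison of reflux esophagitis with control, each miRNA's total was set relative to a reference level of its array, the 75th percentile of the 144 miRNAs with detection throughout, and put on a log2 scale. This is called the scaled signal here, and the value as deposited the unscaled signal, in the software's intensity units. The question was whether miRNAs of the locus in serum exosomes differ between rats with chronic reflux esophagitis and sham-operated rats. Of the 8 miRNAs that could be tested, 0 passed an adjusted p of 0.05 in either direction by limma, where 2 of all 192 tested miRNAs passed as lower (1.04%) and 0 as higher. At an unadjusted p of 0.05 the count was also 0 of 8, against 5 of 192 as lower (2.6%). In 0 of the 8 miRNAs were the groups without overlap, against 3 of 192 as lower (1.56%). By the exact permutation test of each miRNA, whose smallest possible two-sided p with 4 against 4 is 0.0286, the p-values were 0.171 to 0.943.

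The log2 fold changes of the 8 miRNAs, reflux esophagitis over control, lay between -1.18 and 0.08 with a median of -0.38, and 7 of 8 were below 0. Over all 192 tested miRNAs the median was -0.29 and 156 were below 0. Without replicate 9 the medians were -0.51 and -0.15. Dividing by the percentile over all rat miRNAs, as the study's methods describe, shifted the 8 alike and gave medians of 1.32 for the 8 and 1.39 for all tested, with all 8 above 0 and none passing. This shift rested on replicate 9. Without that array the same scaling gave a median of -0.35 for the 8, all of them below 0, and 0.0016 for all tested. The fold change was past -1 in 2 of the 8, miR-494-3p and miR-539-5p, and in 29 of the 192 (15.1%). The software's total of miR-539-5p on replicate 9 left out part of its probes. With its 4 probes summed on every array miR-539-5p was at -0.72, not past -1. The 29 were not recomputed in this way.

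**Figure D2:**
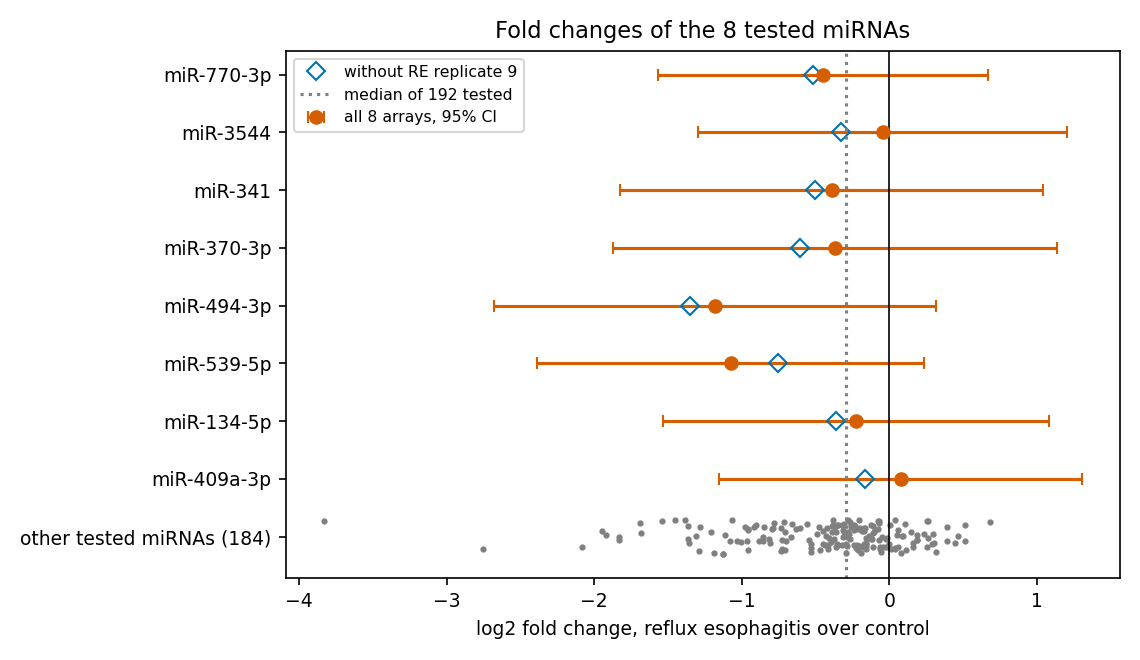
Log2 fold change of reflux esophagitis over control (horizontal axis) for each of the 8 tested miRNAs, with all 8 arrays (filled circles, 95% confidence interval of limma as bars) and without reflux esophagitis replicate 9 (open diamonds). Grey points are the other 184 tested miRNAs, jittered vertically, and the dotted line is the median of all 192, -0.29. All 8 intervals cross 0.

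miR-494-3p (chr6:134394924-134394938) had the largest difference of the 8. It is known mainly from studies of muscle and heart in rodents. The unscaled signals in control replicates 1 to 4 were 634, 961, 647 and 1033. In reflux esophagitis replicates 5, 8, 9 and 10 they were 281, 243, 245 and 752. Replicates 5, 8 and 9 lay below every control, and replicate 10 lay within the controls' range. After scaling, replicate 9 moved up to 0.03, near the lowest control at 0.12, while replicates 5 and 8 stayed at -1.90 and -2.15. The mean scaled signal was 0.37 ± 0.40 in controls against -0.81 ± 1.44 in reflux esophagitis (SD, n = 4 each). The log2 fold change was -1.18 (SE 0.66, 95% interval -2.68 to 0.32, adjusted p = 0.870 by limma, exact p = 0.2), lower than the control mean in 3 of 4 samples. Without replicate 9 it was -1.35 (SE 0.64, adjusted p = 0.913), and with each of the 8 arrays left out in turn it ranged from -1.71 to -0.74. With array quality weights, which give outlying arrays less influence, it was -1.96 and passed (adjusted p = 0.0352 by limma). In that setting the adjusted p of the others of the 8 also fell, to between 0.106 and 0.256 by limma. How many of all 192 tested miRNAs passed in it was not counted. On unscaled signals the exact p was 0.0857.

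The array reads miR-494-3p with a pair of probes that differ by 1 base at the end, shown in lower case with the added base in capitals:
miR-494-3p, shorter probe: agaggtttcccgtg
miR-494-3p, longer probe: agaggtttcccgtgT
The longer probe gave 91.8% to 94.1% of the signal on every array. It read 595, 892, 606 and 964 in controls against 265, 227, 229 and 691 in reflux esophagitis. The shorter probe read 39.9, 68.9, 41.0 and 68.9 against 16.7, 15.9, 15.8 and 61.4, so both placed the arrays in the same way.

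miR-370-3p (chr6:134210248-134210262) is known from studies of lipid metabolism in liver cells. Its unscaled signals were 1409, 1728, 1734 and 1349.9 in controls against 1064, 771, 967 and 2117 in reflux esophagitis, where replicate 10 was the highest of all arrays and the other 3 lay below every control. After scaling, replicates 9 and 10 were the highest arrays, at 2.02 and 2.26, and replicates 5 and 8 the lowest, at 0.02 and -0.49. The log2 fold change was -0.37 (SE 0.66, 95% interval -1.87 to 1.13, adjusted p = 0.927 by limma), and -0.61 without replicate 9. The interval leaves room for fold changes between 0.274 and 2.19. Without replicate 8 the sign turned, to 0.11.

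The summed signal of the locus was mostly that of miR-370-3p and miR-494-3p, which made up 82.4% to 92.1% of it on each array. This describes the sum, not the abundance of the miRNAs, since probes differ in brightness. The sum was 1.25%, 1.74%, 1.54% and 0.968% of the signal of all rat miRNAs in controls against 0.664%, 0.453%, 1.72% and 2.10% in reflux esophagitis. The 4 reflux esophagitis arrays thus held both the lowest and the highest share, and the means were 1.37 ± 0.336% and 1.23 ± 0.800% (SD, n = 4 each).

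miR-539-5p (chr6:134408927-134408946) had the second largest difference. Its unscaled signals were 95.8, 27.7, 32.9 and 24.8 in controls against 32.6, 23.9, 4.6 and 25.04 in reflux esophagitis. Control replicate 1 lay far above and reflux esophagitis replicate 9 far below the other 6 arrays, which were between 23.9 and 32.9. The log2 fold change of the scaled signal was -1.07 (SE 0.58, 95% interval -2.39 to 0.24, adjusted p = 0.870 by limma, exact p = 0.171), and 4 of 4 samples were below the control mean. Without replicate 9 it was -0.76 and without control replicate 1 it was -0.61. The software's total on replicate 9 left out part of the probes. It equals the signal of the longest of its 4 probes alone, 4.6, whereas the 4 probes together read 12.4. With the 4 probes summed on every array, a value computed after this was seen, the log2 difference was -0.72.

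miR-134-5p (chr6:134415649-134415660) is enriched in neurons and in rat hippocampal neurons limits the growth of dendritic spines. Its unscaled signals were 50.6, 71.3, 49.1 and 40.8 in controls against 48.2, 34.97, 28.9 and 65.2 in reflux esophagitis. The log2 fold change of the scaled signal was -0.22 (SE 0.58, 95% interval -1.53 to 1.08, adjusted p = 0.927 by limma), and -0.36 without replicate 9. Without control replicate 2 or reflux esophagitis replicate 8 it was 0.04 and 0.16, so its direction rested on single arrays.

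miR-770-3p (chr6:134141409-134141422), whose hairpin lies in Meg3, read 49.0, 49.0, 56.8 and 52.4 in controls against 44.2, 31.8, 21.3 and 56.4 in reflux esophagitis, unscaled. The controls lay close together, replicate 10 lay within their range, and the other 3 reflux esophagitis arrays lay below them. The log2 fold change of the scaled signal was -0.45 (SE 0.49, 95% interval -1.57 to 0.67, adjusted p = 0.912 by limma), and -0.51 without replicate 9.

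miR-341 (chr6:134203581-134203594), a rodent miRNA with a repeated CGGU in its sequence, read 44.4, 62.3, 41.6 and 31.0 in controls against 41.3, 21.4, 20.7 and 54.2 in reflux esophagitis, unscaled. Its log2 fold change was -0.39 (SE 0.63, 95% interval -1.82 to 1.04, adjusted p = 0.927 by limma), -0.51 without replicate 9 and 0.09 without replicate 8.

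miR-3544 and miR-409a-3p varied least in their unscaled signal. miR-3544 (chr6:134176828-134176839) read 23.7, 39.8, 24.7 and 25.8 in controls against 26.9, 24.7, 23.7 and 27.6 in reflux esophagitis. miR-409a-3p (chr6:134424556-134424569), a sequence known in human cells to target angiogenin, read 22.6, 31.0, 27.1 and 25.2 in controls against 26.8, 24.2, 22.7 and 33.1 in reflux esophagitis. Even on replicate 9, where the 75th percentile was 0.375 times the control mean, both stood at 0.833 and 0.855 times their own control means. Their log2 fold changes were -0.04 (SE 0.55, 95% interval -1.29 to 1.21) and 0.08 (SE 0.54, 95% interval -1.15 to 1.31), with adjusted p = 0.971 and 0.968 by limma, and without replicate 9 they were -0.32 and -0.17.

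The narrow range of these signals was measured over all miRNAs. From the dimmest to the brightest array the 75th percentile changed 4.52-fold, and the median over the 144 miRNAs detected on all arrays was 5.80-fold. miR-409a-3p changed 1.47-fold and miR-3544 1.68-fold, and only 1 and 2 of the 144 had a narrower range. miR-134-5p (2.47-fold), miR-770-3p (2.67-fold), miR-370-3p (2.75-fold) and miR-341 (3.02-fold) were also in the narrower part, so that 6 of the 8 miRNAs were among the 36 of narrowest range and 7 were below the median. The exception was miR-539-5p, whose 20.8-fold range was the widest of the 144 as deposited and 7.72-fold with its 4 probes summed. The error that the software gives for these totals did not set miR-370-3p in doubt, with signals at least 14.0 times their error, but was larger relative to the dim miRNAs. The signal was 5.52 to 9.78 times its error for miR-3544 and 6.48 to 10.4 times for miR-409a-3p. Their range was not compared with that of miRNAs of like brightness.

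**Figure D3:**
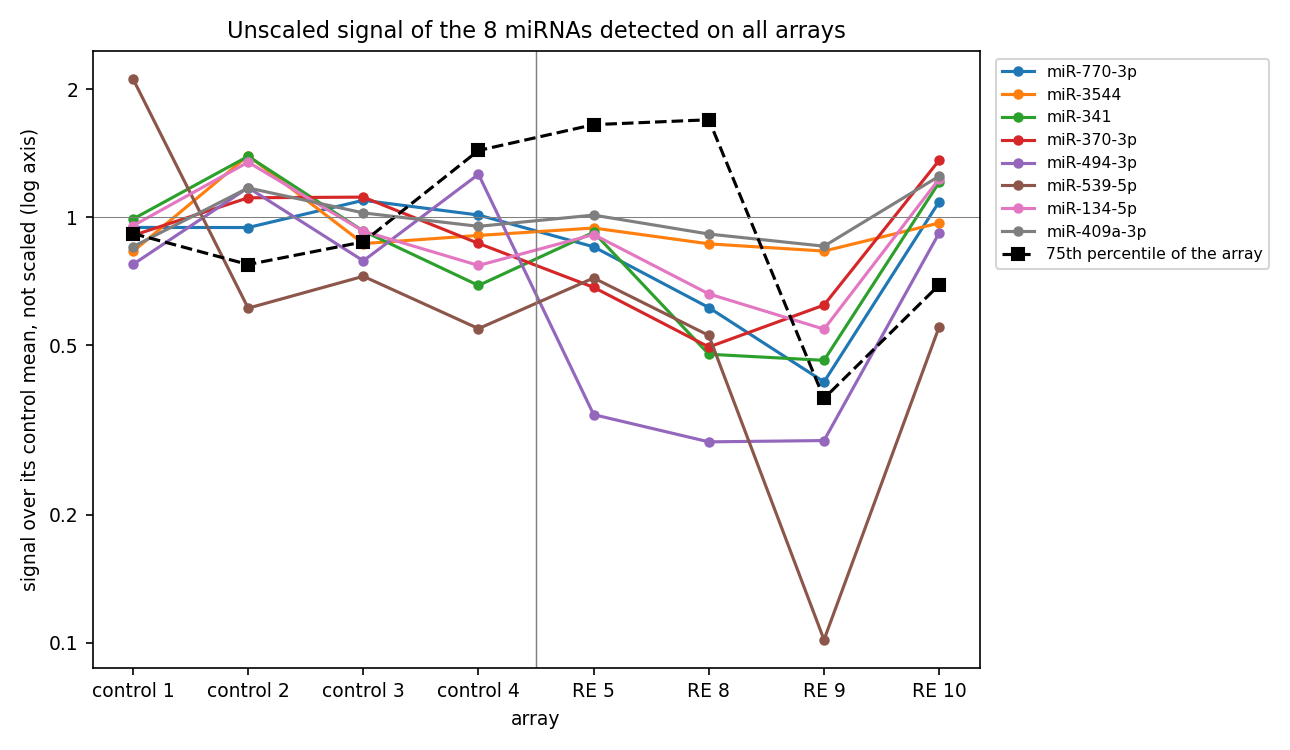
Unscaled signal of each of the 8 miRNAs on each array, divided by that miRNA's mean over the 4 controls (vertical log axis), with the 75th percentile of the array treated in the same way (dashed line, squares). Lines join values of one miRNA and imply no order of the arrays. The percentile rose to 1.65 and 1.69 on reflux esophagitis (RE) replicates 5 and 8 and fell to 0.375 on replicate 9, whereas miR-3544 and miR-409a-3p stayed between 0.831 and 1.40.

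Since the percentile divides every signal, miRNAs with a narrow range took on the reverse of the percentile's order when scaled. In 7 of the 8 miRNAs, all but miR-539-5p, both reflux esophagitis arrays with a low percentile (replicates 9 and 10) lay above both with a high percentile (replicates 5 and 8) on the scaled signal, and in 0 of 8 did they on the unscaled signal. Over the 144 miRNAs detected on all arrays the counts were 60 and 3. Likewise control replicate 4, with the highest percentile of the controls, was the lowest control in 7 of 8 miRNAs on the scaled signal and in 4 of 8 on the unscaled signal, against 74 and 31 of 144. The pattern of a low and a high pair within the reflux esophagitis group was thus present on the scaled signal and not on the unscaled one. The SD of the scaled signal of miR-370-3p was 1.39 in reflux esophagitis and 0.55 in controls.

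**Figure D4:**
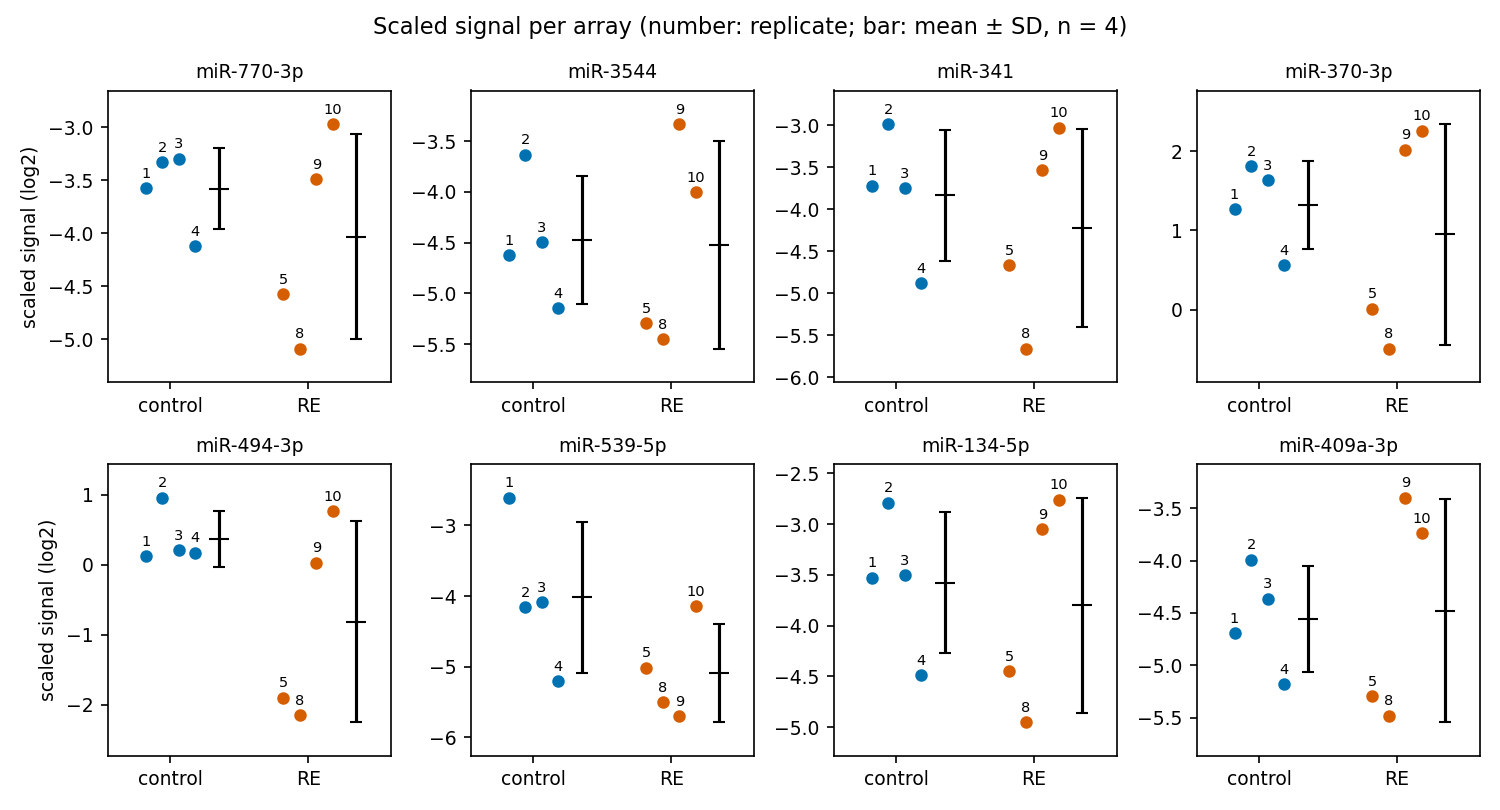
Scaled signal (log2, vertical axis, own range per panel) of the 8 miRNAs on each control array and each reflux esophagitis (RE) array. Points are arrays with the replicate number above, and the black bar is the mean ± SD of the 4 arrays of a group. In 7 panels RE replicates 9 and 10 lie above RE replicates 5 and 8, and in all 8 panels the groups overlap.

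The 7 miRNAs detected on some arrays were not tested, since none was detected on all 4 arrays of a group. Where they were undetected, the software's total is a fixed value, so only detected values are given. A total holds only part of the probes on some arrays, and the sum over all probes is given where that is so. miR-667-3p was detected on 6 arrays, at 19.7, 19.0 and 17.7 in control replicates 1 to 3 and 19.4, 15.8 and 21.3 in reflux esophagitis replicates 5, 8 and 10. Its partner arm miR-667-5p was detected on 4, at 14.8 and 14.6 in control replicates 1 and 2 and 21.2 and 19.3 in reflux esophagitis replicates 5 and 8. miR-667 was thus the sole precursor of the locus with both arms marked as detected. The 3p arm was marked on every array where the 5p arm was. An unmarked arm is not thereby without signal.

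miR-1188-3p was detected in control replicates 2 and 3, at 18.3 and 8.41, and reflux esophagitis replicates 5 and 10, at 15.9 and 19.2. The 8.41 is 1 of its 2 probes, and both together read 15.95. miR-300-5p was detected in control replicate 4, at 5.16, and reflux esophagitis replicates 5 and 8, at 4.17 and 4.72, each the signal of 1 of its 4 probes and close to the dimmest detected signals of these arrays, which were 3.68 to 4.02. Its 4 probes together read 5.41, 5.73 and 5.88 on these arrays. Neither separated the groups by its detection, with 2 and 2 arrays and with 1 and 2 arrays.

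miR-382-5p was detected in control replicates 1 to 3, at 33.5, 9.79 and 8.72, and in reflux esophagitis replicates 5 and 10, at 7.47 and 9.56. The first value is the sum of its 2 probes and the other 4 are the longer probe alone. With both probes summed, these 4 arrays read 15.4, 15.3, 11.1 and 15.1. miR-493-3p and miR-496-5p were detected in control replicate 1 only, at 22.5 and 31.8. These 3 shared with miR-539-5p that control replicate 1 was their brightest array. The ratio of control replicate 1 to the next brightest array was 2.91 for miR-539-5p, the largest of the 144 miRNAs detected on all arrays. With the probes of each miRNA summed it was 3.79 for miR-496-5p, 2.18 for miR-382-5p and 1.77 for miR-493-3p. The other 7 miRNAs detected on all arrays had ratios of 0.595 to 0.863, so control replicate 1 was not bright for the locus as a whole. The mature sequences of the 3 are shown for comparison with miR-539-5p above, with the seed in capitals:
miR-493-3p: uGAAGGUCuacugugugccag
miR-382-5p: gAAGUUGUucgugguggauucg
miR-496-5p: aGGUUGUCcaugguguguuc

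**Figure D5:**
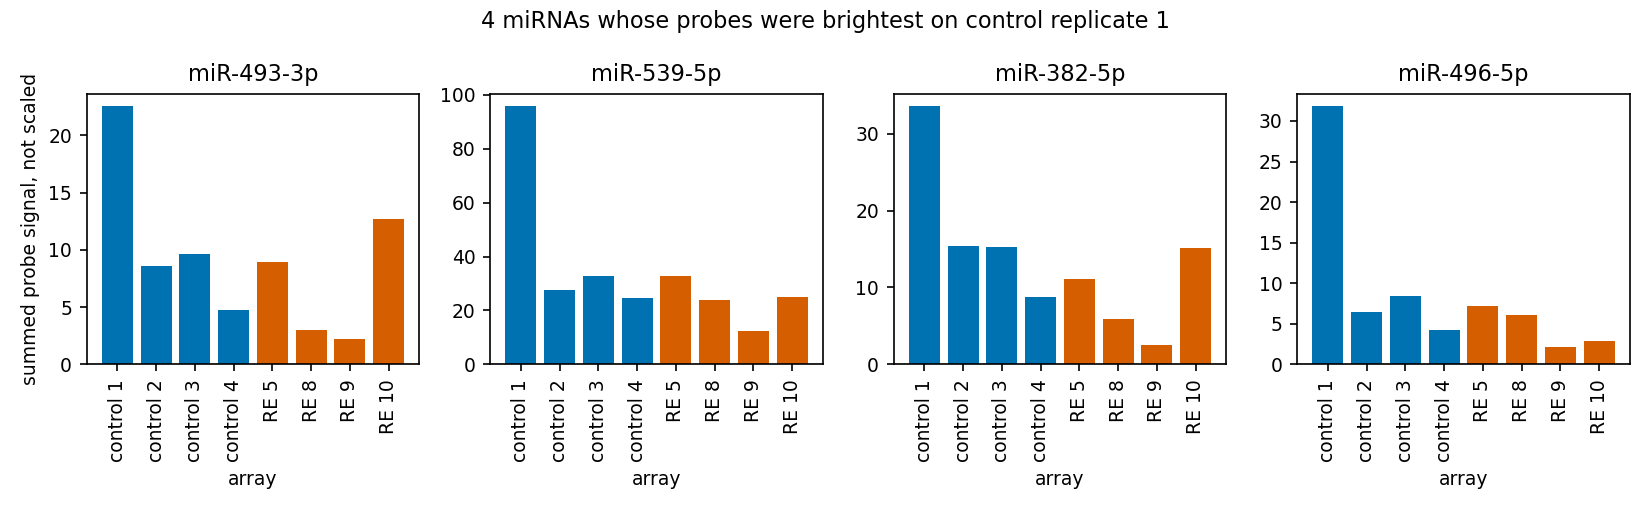
Unscaled signal summed over all probes of miR-493-3p, miR-539-5p, miR-382-5p and miR-496-5p (vertical axes from 0, own range per panel) on each of the 4 control and 4 reflux esophagitis (RE) arrays. Bars are single arrays without error. Control replicate 1 is the highest bar in all 4 panels.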

How the data were processed

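The authors hybridised exosomal RNA from rat serum to Agilent rat miRNA arrays and read them with Agilent Feature Extraction 10.10.1.1. The deposited files give background-subtracted intensity on a linear scale, per spot and as a total per miRNA, with no adjustment from array to array. The deposited value table repeats the processed spot signal (all 15095 features, relative tolerance 1e-04) and was not used further. Each miRNA has 20 spots, and no spot of the 100 miRNAs was saturated. Arrays give no counts, so their number limits the precision.

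Totals were scaled to the 75th percentile of the 144 miRNAs with detection on every array, floored at 0.00350, the lowest such scaled value of any miRNA with the detection mark, and converted to log2. The groups were compared with limma 3.58.1 (R 4.3.3; default prior, two-sided, Benjamini-Hochberg over the 192 miRNAs detected on the 4 arrays of either group, threshold 0.05), and exact permutation tests used all 70 splits. The fit was tested on simulated data in which each miRNA varied independently. Shifts shared by the miRNAs of an array were not simulated, so that test does not cover them. Tables and figures were made with Python 3.11.15, pandas 2.3.3, numpy 2.4.6 and matplotlib 3.10.9. The methods' scaling, over all miRNAs with a floor of 0.01, was an alternative, because most miRNAs are undetected. Members detected on the 4 arrays of either group were named with all values, those detected on fewer with their detection, and the others once. The members and lists were chosen with earlier results of these data known. Sequences, strands and host genes are from RefSeq (GRCr8), and positions from the files (rn4).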

Additional observations from a re-analysis of the deposited data

Results flagged for a closer look

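The scaled signal of miR-494-3p in control replicate 2 was 0.96 on the log2 scale, far from the next control at 0.21 relative to the range of that group, and its unscaled signal was 961. The groups of 4 arrays compared in this way were 20, and chance sets about 1 in 20 apart, so 1 would arise by chance. On the unscaled signal control replicate 4, at 1033, was the higher array.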

How the results depend on the processing

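In 23 alternative settings the 8 miRNAs gave 184 values, of which 161 kept direction and side of the threshold, 1 passed newly and 22 changed sign. The number of the 8 that passed as lower was 0 in 22 settings and 1 with array quality weights, and the number higher was 0 in all 23. The share of all tested miRNAs that passed with array quality weights was not counted, so this 1 has no share beside it. With the methods' scaling, which moved the median of all tested miRNAs to 1.39, the median of the 8 was 1.32, and the values were 1.25 for miR-770-3p, 1.65 for miR-3544, 1.31 for miR-341, 1.33 for miR-370-3p, 0.52 for miR-494-3p, 0.62 for miR-539-5p and 1.47 for miR-134-5p. This was one shift common to the 8 that rested on reflux esophagitis replicate 9, and without it the same scaling gave a median of -0.35, with all 8 below 0 (miR-494-3p at -1.19). Of the 719 rat miRNAs 144 were detected on replicate 9, so its 75th percentile over all of them fell among undetected miRNAs. The median of the 8 was also -1.01 with array quality weights (all tested -0.37), -0.056 with normexp, -0.17 with median scaling and -0.22 with quantile normalization. miR-3544 was 0.050 with normexp, 0.17 with median scaling, 0.23 with quantile normalization, 0.24 when control replicate 2 was left out, and 0.21 and 0.27 when reflux esophagitis replicate 5 or 8 was. miR-409a-3p was -0.59 with array quality weights, -0.13 lacking control replicate 4, -0.17 lacking reflux esophagitis replicate 9 and likewise lacking replicate 10, and -0.011 with the methods' scaling lacking replicate 9. miR-134-5p was 0.039 lacking control replicate 2. Leaving out 1 array at a time, the median of the 8 ranged from -0.80 (reflux esophagitis replicate 10 omitted) to 0.10 (replicate 8 omitted), miR-770-3p from -0.80 to -0.098, miR-3544 from -0.32 to 0.27, miR-341 from -0.79 to 0.089, miR-370-3p from -0.80 to 0.11, miR-494-3p from -1.71 to -0.74, miR-539-5p from -1.47 to -0.61, miR-134-5p from -0.57 to 0.16 and miR-409a-3p from -0.17 to 0.41, and the lowest adjusted p of any was 0.273 (limma). The cause of these shifts was not tested. With most spots well above background as the mark, the mean number of miRNAs per array was 7.5 in controls and 5.5 in reflux esophagitis. With a gap of 20 kb the groups by position were 3. No paired analysis was possible because the groups share no replicate numbers. Detection at low signal limits the counts, since 85 of the 100 miRNAs gave no value.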

Other observations

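The probes of miR-539-5p, miR-493-3p and miR-496-5p share the letters CACAC, complementary to GUGUG near the end of the miRNA. The motif was chosen after their values were seen, and probes were searched on their own strand. It occurs in the probes of 22 of the 719 rat miRNAs (3.06%) and of 3 of the 100 at the locus, which are these 3, whereas miR-382-5p lacks it. Of the 8 miRNAs with the motif that were detected on all arrays, 6 were brightest on control replicate 1, namely miR-539-5p and 5 outside the locus, miR-466d, miR-672-5p, miR-465-5p, miR-32-3p and miR-466b-5p, with ratios to the next brightest array of 1.53 to 2.91. Of the 136 without it, 4 were brightest there. Of the 7 rat miRNAs detected on control replicate 1 only, 2 have the motif, miR-493-3p and miR-496-5p. Like miR-539-5p, both are among the 3 from which the motif was taken, so their place in these counts was fixed by that choice. These counts are a description of a single array, and their cause was not tested.

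The size of the difference of miR-539-5p between the groups varied with this array. From the software's total, which left out part of the probes on reflux esophagitis replicate 9, its log2 fold change was -1.07 with control replicate 1. Without that control it was -0.61. With the 4 probes summed the log2 difference over all arrays was -0.72, and the arrays other than control replicate 1, 7 in number, spanned 2.65-fold. The summed difference without control replicate 1 was not computed.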
